A study of Mus musculus with 24 samples.

Results

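The genes described here encode the nuclear subunits of the oxidative phosphorylation machinery, the 5 enzyme complexes of the inner mitochondrial membrane that make ATP. They were chosen by name: symbols beginning Ndufa, Ndufb, Ndufc, Ndufs or Ndufv followed by a digit, the 4 Sdh genes, symbols beginning Uqcr, Cyc1, symbols beginning Cox4 to Cox8, and symbols beginning Atp5. Of 24340 genes listed, 85 matched, and 82 of these reached 1 FPKM (fragments per kilobase of transcript and per unit of sequenced fragments, a level corrected for transcript length and library size) in at least 1 group. For comparison, 14124 of all genes reached 1 FPKM. The 82 are called members below. All 37 genes of complex I, all 4 of complex II and all 9 of complex III were members, against 16 of 18 for complex IV and 16 of 17 for complex V. Just outside the limit was Cox7b2, at most 0.96 FPKM, and far outside it were Atp5g2, at most 0.24 FPKM, and Cox8c, listed at 0 in every group. Just inside it was Ndufa4l2, with a mean of 2.31 FPKM. Cox7a2l, Atp5s and Atp5sl matched by name, although they are known as assembly or accessory factors.

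RNA-seq was done on the striatum of male mice on a C57BL/6J background. The mice were hemizygous R6/1, a model of Huntington's disease whose transgene is the first exon of human HTT with a lengthened CAG repeat, or their wild type (WT) littermates, and were 14 to 17 weeks old at the end. RGFP109, an inhibitor of the histone deacetylases HDAC1 and HDAC3, was injected intraperitoneally at 30 mg/kg, 5 times a week for 3 weeks, with the last injection 18 h before tissue collection, while the other mice of each genotype received the vehicle, DMSO diluted in saline. The 24 libraries were divided into R6/1-RGFP109 (7), R6/1-vehicle (6), WT-RGFP109 (6) and WT-vehicle (5). R6/1 is a single transgenic line in which the fragment is expressed from the human HTT promoter, so the groups model a truncated human protein beside the intact mouse gene. The values used are group values, 1 per group and comparison, so the spread between mice is unknown, no test was made, and each difference below is a description without a replicate error. The depth of the libraries is unknown.

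Electrons from NADH enter the chain at complex I (NADH dehydrogenase) and electrons from succinate at complex II (succinate dehydrogenase). Ubiquinone carries them to complex III (cytochrome bc1), cytochrome c carries them on to complex IV (cytochrome c oxidase), and the proton gradient built by complexes I, III and IV drives complex V (ATP synthase). Complex II is encoded wholly in the nucleus, whereas the others combine nuclear subunits with a few encoded by mitochondrial DNA, which were not analysed here. Several nuclear subunits exist as isoforms with different tissue distributions. Projection neurons of the striatum have a high demand for ATP, and impaired respiration is a long-standing theme of Huntington's disease research.

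The subunit genes were among the most abundant messages of the striatum. The median level over the 82 members was 166 FPKM, against 11.3 FPKM over all genes at 1 FPKM or more, where the level is the mean of the 4 groups. At 100 FPKM or more stood 58 members, or 70.7%, against 5.37% of all genes. The highest were Cox8a (966 FPKM), a small subunit of complex IV, Cox4i1, its largest nuclear subunit, Atp5k, a membrane subunit of ATP synthase (929 FPKM), and Atp5b, the catalytic beta subunit. Within each complex the genes differed more from each other than the groups differed in any of its genes. Complex II had the narrowest range, 2.31-fold from Sdhd (82.7 FPKM) to Sdha (191 FPKM). Complex III spanned 5.03-fold, from Uqcrb to the hinge subunit gene Uqcrh (438 FPKM). Complex I ranged from Ndufa4l2 to Ndufa4 (702 FPKM), a subunit that keeps its complex I name although it is known to sit in complex IV. Complex IV ranged from Cox4i2 (3.56 FPKM) to Cox8a, and complex V from Atp5s (10.8 FPKM) to Atp5k.

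The first question was how the mutant striatum differed from WT without drug. A ratio is given as log2 of the R6/1 over the WT value, after adding 0.05 FPKM to each, within the table in which the authors compared that pair. In the vehicle groups 57 of 82 members were lower in R6/1 and 25 higher, with a median log2 ratio of -0.09, while 50.8% of all genes were lower and their median was -0.01. Past a log2 ratio of 0.25 in either direction, which is a 1.19-fold difference, were 9 members lower and 2 higher. The background over all genes was 23.1% lower and 15.6% higher, so fewer members than genes in general passed this limit in either direction. The lower side held Cox8b, Cox6a2, Cox4i2, Cox7a1, Uqcr11, Uqcrq, Cox5b, Cox7c and Cox8a, and the higher side Atp5g1 and Ndufs5. At a limit of 0.1, 38 members were lower and 11 higher, against 37.1% and 33.6% of all genes, and at 0.5, 3 were lower and 0 higher, against 10.8% and 4.27%. When each group's level was instead averaged over its 3 tables, 5 were lower and 3 higher, since Sdha came in and Uqcrq, Cox5b, Cox7c and Cox8a dropped out, each within 0.05 of the limit. The members also scattered less than other genes: the interquartile range of their log2 ratios was 0.20, against 0.39 over all genes. Abundant genes as a class were lower in R6/1 too. Of 1836 genes with a mean of 50 FPKM or more, 61.6% were lower, with a median of -0.07, beside 46 of the 68 members at that level and a median of -0.08. Past 0.25 were 28.3% of these genes lower and 7.73% higher, against 4 and 0 of the 68 members. Members are also short, with a median RefSeq mRNA length of 769 nt, against 2950 nt for all genes with a length. Of 64 genes at 50 FPKM or more and under 600 nt, 50 were lower, with a median of -0.12. Beside them, 13 of 18 members of that level and length were lower, also with a median of -0.12. Longer members departed more from genes of like level and length. The medians of members and of all genes were -0.11 and -0.10 at 600 to under 800 nt, and -0.10 and -0.07 at 800 to under 1200 nt. They were 0.03 and -0.04 at 1200 to under 2000 nt, and 0.05 and -0.06 at 2000 nt or more.

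The complexes had different medians. Complex IV had the lowest median, -0.22, with 15 of its 16 members lower in R6/1-vehicle. Complex I had a median of -0.09 and complex V one of -0.06. Complexes II and III stood slightly above 0, at 0.03 and 0.02. With RGFP109 the order at both ends was kept, with complex IV lowest at -0.15 and complex II highest at 0.08. Transcript length separated these complexes: RefSeq mRNAs of complex IV members had 360 to 1102.5 nt and those of complex II 1142 to 3171 nt. The part of length in their medians was not tested.

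**Figure D1:**
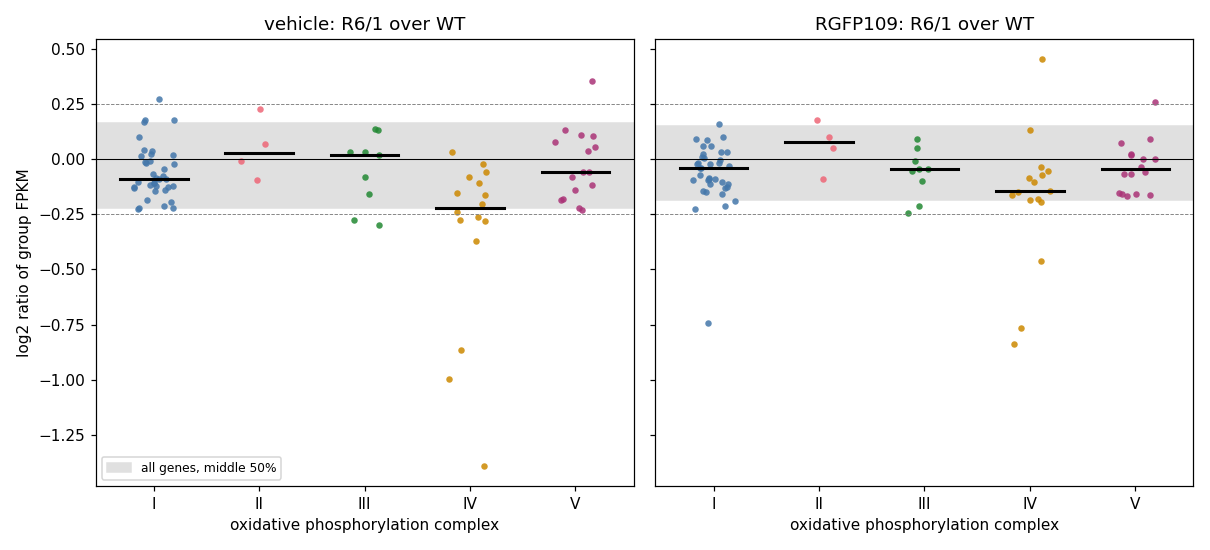
Log2 ratio of R6/1 over WT group FPKM for each member by complex, in the vehicle groups (left) and the RGFP109 groups (right). Points are genes, black bars the median of a complex, the grey band the middle 50% of all genes at 1 FPKM or more and dashed lines log2 ratios of 0.25; complex IV has the lowest bar in both panels, at -0.22 and -0.15.

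In complex I 27 of 37 members were lower in R6/1-vehicle, but 36 of the 37 stayed within the 0.25 limit. The 7 core subunits that carry the flavin and the iron-sulfur clusters or form the quinone site had a median of -0.10, and the other 30 one of -0.09, so the catalytic core did not stand apart. Ndufs1, the largest iron-sulfur subunit, had 66.6 FPKM in WT-vehicle against 77.0 in R6/1-vehicle, and with RGFP109 69.4 in WT against 75.7 in R6/1. Both R6/1 values were above both WT values, with log2 ratios of 0.18 and 0.09. Ndufs3, another core subunit, showed the opposite order, with 66.8 and 66.6 FPKM in the WT groups against 58.4 and 58.8 in the R6/1 groups. Its log2 ratios were -0.23 with vehicle and -0.21 with RGFP109. Of other core subunits, Ndufv1, which binds FMN, had -0.05 and -0.03, Ndufv2 had 0.10 and 0.02, and Ndufs8 had -0.12 and -0.09. Ndufs7 had -0.18 with vehicle and 0.00 with RGFP109. Ndufa4 had -0.11 and -0.13, and Ndufa4l2, its low-abundance relative known to respond to hypoxia, had -0.13 and 0.03.

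Complex II, which also belongs to the citrate cycle, was the only complex whose median was above 0 in both genotype comparisons. Sdha, the flavoprotein that oxidises succinate, had 175 FPKM in WT-vehicle against 210 in R6/1-vehicle, and with RGFP109 176 in WT against 203 in R6/1. The R6/1 values lay above the WT values with and without drug, at log2 ratios of 0.23 and 0.18. Sdhb, the iron-sulfur subunit that works beside it, went the other way at -0.10 and -0.09. The membrane anchors Sdhc and Sdhd had -0.01 and 0.07 with vehicle, and 0.05 and 0.10 with RGFP109. None of the 4 passed 0.25.

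Complex III had 4 members below 0 with vehicle and 7 of 9 with RGFP109, and its lowest were small subunits. Uqcr11, one of its smallest subunits, had 263 FPKM in WT-vehicle against 219 in R6/1-vehicle, and with RGFP109 260 in WT against 225 in R6/1. Uqcrq, a ubiquinone-binding subunit, had 351, 297, 341 and 301 FPKM in the same order. In both genes each R6/1 value lay below both WT values, at log2 ratios of -0.30 and -0.24 for Uqcr11 and of -0.28 and -0.21 for Uqcrq. Cyc1, the cytochrome c1 gene, had 0.03 and -0.01, and Uqcrfs1, the Rieske iron-sulfur protein, 0.03 and 0.05. Uqcrh had 0.02 and -0.04, and Uqcrb, the least abundant gene of the complex, 0.13 and -0.04.

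Among the broadly expressed subunits of complex IV, the 3 most abundant were lower in R6/1. Cox8a had 1033 FPKM in WT-vehicle against 881 in R6/1-vehicle, and with RGFP109 1011 in WT against 937 in R6/1. Cox4i1 had 1020, 908, 1017 and 910 FPKM, and Cox6a1, had 900, 780, 860 and 838 FPKM in the same order. For each of these genes both R6/1 values lay below both WT values, and the gap was narrower with RGFP109 for Cox8a (log2 ratios -0.26 and -0.14) and Cox6a1 (-0.24 and -0.07) but not for Cox4i1 (-0.20 and -0.19). Cox5b, which binds zinc, had -0.28 and -0.19, Cox7c -0.27 and -0.15, and Cox7a2 -0.16 and -0.18. Cox7b had -0.06 and -0.16. The exception with vehicle was Cox5a, the only complex IV member above 0, at 0.03. Cox6b1, which faces the intermembrane space, lay near 0 at -0.02 and -0.04. The summed level of the 16 members was 5055 FPKM in WT-vehicle against 4571 in R6/1-vehicle, and with RGFP109 5023 in WT against 4723 in R6/1. The sum over all genes was lower in R6/1 as well, at 410742 against 439387 FPKM with vehicle and at 412639 against 429517 FPKM with RGFP109.

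The largest genotype differences of the set with vehicle were in the low-abundance isoforms of complex IV. Cox6a2 (mm10 chr7:128205435-128206366), the isoform known from heart and skeletal muscle, had 13.5 FPKM in WT-vehicle against 6.89 in R6/1-vehicle, and with RGFP109 13.0 in WT against 7.43 in R6/1. Both R6/1 values were near 7 FPKM and both WT values near 13, giving log2 ratios of -0.996 and -0.84, whereas the treatment ratios were 0.10 in R6/1 and -0.05 in WT. Cox4i2 (chr2:152753916-152765039), the isoform known from lung, had 4.76, 2.65, 3.92 and 2.90 FPKM, again with both R6/1 values lowest, at log2 ratios of -0.86 and -0.46. Cox8b (chr7:140898942-140900446), another muscle isoform, had 7.52, 2.91, 2.75 and 1.63 FPKM. WT-vehicle stood above the other 3 groups here, so Cox8b was lower by genotype (-1.39 and -0.76) and also by treatment (-0.82 in R6/1 and -1.44 in WT).

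Cox7a1, another muscle isoform, and Cox6b2, known from testis, had no constant direction. Cox7a1 had 8.14 FPKM in WT-vehicle against 6.44 in R6/1-vehicle, and with RGFP109 6.81 in WT against 7.65 in R6/1, with genotype ratios of -0.37 and 0.13. Cox6b2 had 7.09, 6.73, 4.79 and 6.73 FPKM, and only WT-RGFP109 stood apart, which gave genotype ratios of -0.11 and 0.45. Apart from Cox6a2 these isoforms had means below 10 FPKM, as did Ndufa4l2, and at such levels a difference of a few FPKM makes a large ratio. Adding 1 FPKM in place of 0.05 moved Cox8b to -1.15 and -0.53, and Cox4i2 to -0.68 and -0.36.

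**Figure D2:**
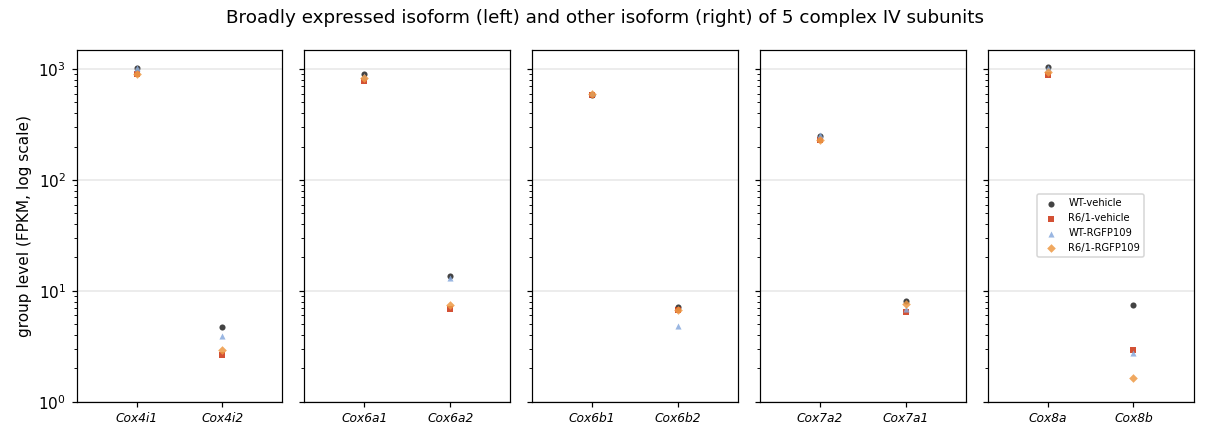
Levels of the broadly expressed isoform and of the other isoform of 5 complex IV subunits in the 4 groups, in FPKM on a log scale, with 1 group value per point and no error. The broadly expressed isoforms lie between 227 and 1033 FPKM, and the other isoforms between 1.63 and 13.5 FPKM.

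ATP synthase was divided by subunit. The F1 head, which holds the catalytic sites, had a median of 0.05 with vehicle and 0.02 with RGFP109 over its 5 genes. Atp5b had 890 FPKM in WT-vehicle against 982 in R6/1-vehicle, and with RGFP109 887 in WT against 954 in R6/1, so that the R6/1 values were the higher ones (0.11 and 0.07). Atp5a1, the alpha subunit that shares the catalytic sites, had 0.05 and 0.02. The small F1 subunit genes Atp5d and Atp5e were lower, at -0.22 and -0.19 with vehicle and at -0.16 and -0.17 with RGFP109. Their mRNAs, of 931 and 421 nt, are shorter than those of Atp5a1 (2471 nt) and Atp5b (1916 nt). Atp5k, in the membrane part, had -0.18 and -0.16.

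The c-ring, whose rotation couples the proton flow to ATP synthesis, is encoded by 3 genes for the same mature protein. Atp5g3 carried most of the message, with 556 to 584 FPKM and log2 ratios of 0.04 and 0.00. Atp5g1 (chr11:96072793-96075694) had 14.5 FPKM in WT-vehicle against 19.1 in R6/1-vehicle, and with RGFP109 15.1 in WT against 18.5 in R6/1. It was the only member past 0.25 upward in both genotype comparisons, at 0.36 and 0.26. Atp5g2 lay under 1 FPKM, and 87.4% of its 51-base words, the length of the reads, occur in transcripts of other genes too. For Atp5g1 the share was 17.1%, spread over 329 other genes, and its part in the ratios was not tested. Atp5s, the least abundant member of the complex, had 0.13 with vehicle and 0.00 with RGFP109.

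The same question was asked in the RGFP109 groups, which share no library with the vehicle groups. Here 58 of 82 members were lower in R6/1, with a median log2 ratio of -0.06, against 48.4% of all genes and a median of 0.01. Past 0.25 were 4 members lower, namely Cox6a2, Cox8b, Ndufs5 and Cox4i2, and 2 higher, Cox6b2 and Atp5g1. The background was 20.3% lower and 13.3% higher. At 0.1 there were 29 lower and 6 higher (34% and 33.8% of all genes), and at 0.5 3 lower and 0 higher (9.39% and 3.86%). Of the 68 members at 50 FPKM or more, 0 passed 0.25, against 23.6% of genes of that level lower and 7.46% higher. Of the members, 49 were lower in both genotype comparisons and 16 higher in both, so 65 kept their direction, or 79.3%, close to the 81.7% of all genes that did. The balance between directions differed from all genes, of which 40.7% were lower in both and 41% higher in both, against 59.8% and 19.5% of members. Genes at 50 FPKM or more lay between, with 51.1% lower in both and 33.7% higher in both. Lower by more than 0.25 in both were Cox4i2, Cox6a2 and Cox8b, or 3.66% of members against 15.7% of all genes, and higher by more than 0.25 in both was Atp5g1, or 1.22% against 8.64%. The ratios of the 82 members in both comparisons had a Pearson r of 0.68 and a Spearman rho of 0.67, and the 68 members at 50 FPKM or more an r of 0.85 and a rho of 0.84. The rho over all genes was 0.76, and 0.80 over all genes at 50 FPKM or more, close to that of the members. These points are genes, which share their libraries and are not replicates.

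**Figure D3:**
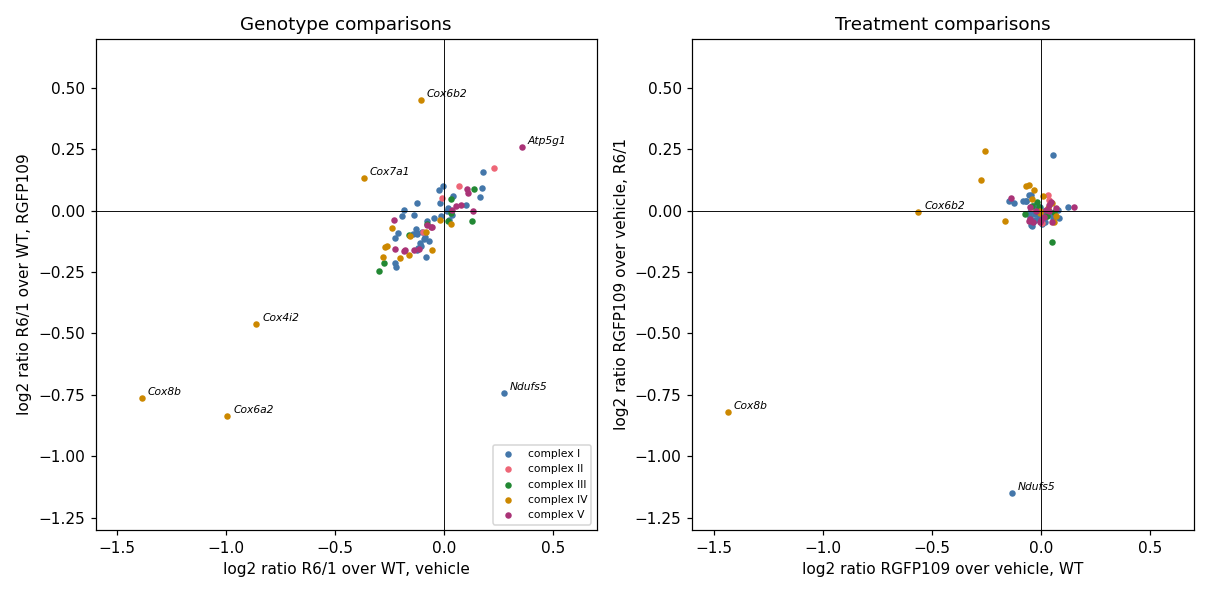
Left, log2 ratio of R6/1 over WT with RGFP109 against the same ratio with vehicle; right, log2 ratio of RGFP109 over vehicle in R6/1 against the same ratio in WT, each point 1 member. In the genotype panel 65 of 82 members lie in the quadrants of equal sign, whereas the treatment panel is a cluster around 0 with Cox8b, Cox6b2 and Ndufs5 outside it.

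Whether the drug altered these genes was asked separately in each genotype. In R6/1 the median log2 ratio of RGFP109 over vehicle was 0.00 over the 82 members, with 43 lower and 39 higher (48.1% of all genes were lower), and the median absolute ratio was 0.03, against 0.05 for all genes. Past 0.25 were 2 members, Ndufs5 and Cox8b, both lower, beside 4.07% of all genes lower and 3.7% higher. At 0.1 there were 3 lower and 4 higher (13.2% and 12.9% of all genes), and at 0.5 the same 2 lower and 0 higher (1.76% and 1.69%). In WT the median was -0.01, with 48 lower, against 50.8% of all genes. Past 0.25 were 4 members, all lower and all from complex IV, namely Cox8b, Cox6b2, Cox4i2 (-0.28) and Cox7a1 (-0.26), beside 6.87% of all genes lower and 4.55% higher. At 0.1 there were 9 lower and 2 higher (20% and 17.5% of all genes), and at 0.5 2 lower, Cox8b and Cox6b2, and 0 higher (2.49% and 1.88%). Cox8b was lower past 0.25 in both genotypes, as were 1.42% of all genes. Under 10 FPKM stood each of these 4. The treatment comparisons, which share no library with each other, gave 35 of 82 members the same sign, or 42.7%, against 49.6% of all genes. Over the 82 members the Spearman rho was -0.15 and the Pearson r 0.48, and over the 68 members at 50 FPKM or more they were -0.17 and -0.22. None of the 68 members at 50 FPKM or more passed 0.25 in either genotype, against 2.61% of genes of that level lower and 3.38% higher in R6/1, and 4.47% and 2.51% in WT. Complex IV was the complex with the highest share above 0 in R6/1 after complex II, 10 of 16 with a median of 0.02, and with the lowest median in WT, -0.04.

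Ndufs5, an accessory subunit of complex I (chr4:123712710-123718186), had the largest treatment ratio among members above 10 FPKM. It had 25.8 FPKM in WT-vehicle against 31.9 in R6/1-vehicle, and with RGFP109 23.6 in WT against 14.4 in R6/1. The vehicle R6/1 group was the highest and the treated R6/1 group the lowest, so the genotype ratio was 0.27 with vehicle and -0.74 with RGFP109, and the treatment ratio -1.15 in R6/1 and -0.13 in WT. The treatment ratio in R6/1 minus that in WT was -1.02, and this difference could not be tested. Of its 51-base words, 40.8% also occur in other genes, mostly in the processed pseudogene BC002163. That pseudogene was listed at 2.09, 2.27, 2.15 and 2.56 FPKM in the same group order and was not lower in the treated R6/1 group. How reads shared by both were divided was not tested.

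Shared sequence is common in this gene set. Of the 82 members, 28 had 10% or more of their 51-base words in transcripts of other genes, and 3 had 50% or more: Atp5l, a membrane subunit of ATP synthase, at 84.8%, Cox7c at 52.9% and Atp5h, of its peripheral stalk, at 50.1%. The median level of those 3 was 31.0 FPKM, against 169 FPKM for the other 79. Levels of these genes are uncertain for that reason, and the part of shared reads in their ratios was not tested. Not all of the 28 share words with a separate gene. Atp5o (49.7%) shared most with a second annotated entry of its own name, and Cox5a (31.4%) with Gm26631, whose exons overlap its own.

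Other mitochondrial gene lists had medians nearer to 0. The 44 assembly factors, which build the complexes but are not part of them, had a median log2 ratio of 0.02 in the vehicle groups. Past 0.25 were 4 upward, or 9.09%, and 1 downward, or 2.27%, against 15.6% and 23.1% of all genes. Nubpl, which delivers iron-sulfur clusters to complex I, was the highest at 0.48 (2.88 FPKM in WT-vehicle and 4.12 in R6/1-vehicle), and Lyrm7, which acts in the maturation of the Rieske protein, the lowest at -0.38. Lyrm7 was also lower with RGFP109, at -0.41. The 76 mitochondrial ribosomal proteins had a median of 0.00, from Mrpl12 at -0.22 to Mrpl39 at 0.39. The 13 citrate cycle genes had a median of 0.02, and Dld, the dihydrolipoamide dehydrogenase of the 2-oxoacid complexes, was the highest at 0.28. The 16 carrier and pore genes had a median of 0.02, from the import motor gene Timm44 at -0.26 to the outer membrane channel gene Vdac3 at 0.33.

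Outside the mitochondrion, 9 of 15 glycolytic genes were lower in R6/1-vehicle, with a median of -0.03, against 50.8% of all genes lower. Aldoc, the aldolase known from astrocytes, was the lowest at -0.57 and had -0.52 with RGFP109, and Pgam1 was the highest at 0.19. With RGFP109 4 glycolytic genes were past 0.25 downward, or 26.7%, against 20.3% of all genes. The 67 cytosolic ribosomal proteins at 1 FPKM or more, of 79 listed, had a median of -0.07 with vehicle and 0.00 with RGFP109. In the vehicle groups 6 were lower past 0.25, or 8.96%, and 4 higher, or 5.97%, against 23.1% and 15.6% of all genes. The lowest was Rpsa at -0.56 (2.30 FPKM in WT-vehicle and 1.58 in R6/1-vehicle). The highest was Rpl26 at 0.74 (13.7 and 23.5 FPKM). Shared sequence was not examined for these genes. The 12 regulators of mitochondrial genes had a median of 0.09 with vehicle, and 10 lay within 0.25. The exceptions were Esrra, the estrogen-related receptor alpha, which had 31.3 FPKM in WT-vehicle against 26.0 in R6/1-vehicle, and with RGFP109 30.4 in WT against 25.1 in R6/1, at log2 ratios of -0.30 and -0.31, and Gabpa, the ETS factor of the GA-binding protein, at 0.28 and 0.18. Ppargc1a, the coactivator PGC-1alpha, had 0.13 and -0.13. In the treatment comparisons the median of each of these 7 lists lay between -0.05 and 0.03.

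The 9 markers of striatal projection neurons were present in every group, as the tissue label requires, and summed to 3295 FPKM in WT-vehicle against 1294 in R6/1-vehicle, and with RGFP109 3168 in WT against 1162 in R6/1. All 9 were lower in R6/1 in both genotype comparisons, with medians of -1.36 and -1.39, beside -0.09 and -0.06 for the members. Other cell type markers were lower in R6/1 as well. The 6 oligodendrocyte markers summed to 4625, 2649, 3602 and 2984 FPKM in the same group order, the 6 astrocyte markers to 633, 454, 641 and 452 FPKM, and the 5 neocortical neuron markers to 339, 192, 314 and 244 FPKM. The 5 microglial markers summed to 168, 144, 165 and 142 FPKM, and the 4 endothelial markers to 29.4, 21.6, 26.0 and 20.3 FPKM. None of the markers was at 0 in any group. In bulk tissue fewer cells of a type and less RNA per cell cannot be told apart, and the part of cell composition in the members' ratios was not tested.

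Choroid plexus markers moved with treatment and with genotype, and the order of their groups was that of Cox8b. The 4 markers (Folr1, Kl, Clic6 and Otx2) summed to 30.4 FPKM in WT-vehicle against 19.8 in R6/1-vehicle, and with RGFP109 12.2 in WT against 8.56 in R6/1. All 4 were past 0.25 downward with RGFP109 in both genotypes, and all 4 were below 0 in both genotype comparisons. Their part in the Cox8b values was not tested.

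Ratios were higher for members with longer transcripts. Over the 82 members, the log2 ratio of R6/1 over WT had a Spearman rho with RefSeq mRNA length of 0.43 with vehicle and of 0.37 with RGFP109, as a description across genes that share their libraries. With vehicle, 25 members shorter than 600 nt had a median of -0.14, 16 members of 800 to under 1200 nt one of -0.11, 18 members of 1200 to under 2000 nt one of 0.03 and 6 members of 2000 nt or more one of 0.11. Of the 6 long members Sdha, Ndufs1, Atp5g1 and Atp5a1 were above 0 and Ndufa10 (-0.07) and Sdhc (-0.01), the longest, below it. Of the 25 short members 19 were below 0, among them Uqcr11, Cox8a and Cox8b, and 6 above it. Over all genes with a length the rho was 0.15 and 0.05, but the 167 shortest genes, under 600 nt, also had a median of -0.11 with vehicle and -0.10 with RGFP109. With vehicle 110 of those 167 genes were below 0. Over the 68 members at 50 FPKM or more the rho was 0.39 with vehicle and 0.41 with RGFP109. Over all genes of that level it was 0.005 and -0.08. In WT the treatment ratio had a rho with length of 0.35 over members, 0.14 over the 68 members at 50 FPKM or more and 0.21 over all genes. In R6/1 these were 0.02, 0.02 and -0.07. Differences in RNA integrity or in library preparation between groups could not be seen in group values, and their part was not tested.

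**Figure D4:**
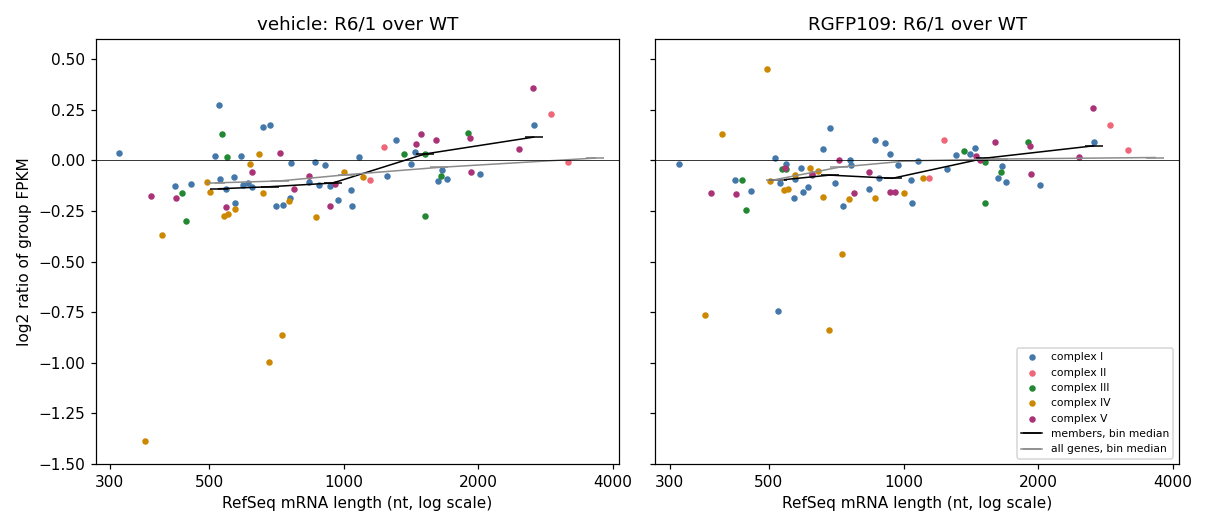
Log2 ratio of R6/1 over WT group FPKM against RefSeq mRNA length on a log scale, for each member, in the vehicle (left) and RGFP109 (right) groups. Lines join the medians of length bins for members (black) and for all genes (grey); the members' line goes from -0.14 in the shortest to 0.11 in the longest bin with vehicle.

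Promoters were compared because subunit genes of the respiratory chain are known targets of NRF-1, GA-binding protein and other ETS factors, YY1 and estrogen-related receptors. RefSeq windows from 250 bases before to 50 after the start (GRCm38.p6, the mm10 assembly) were found for 67 of the 82 members. Matches on either strand to the NRF-1 letters, GCGC followed by any base and TGCGC, lay in 23.9% of members, 11.1% of expressed genes and 4.60% of all windows. The YY1 letters AAGATGGC lay in 16.4% of members, 5.07% of expressed genes and 2.75% of all windows. The estrogen-related receptor letters TCAAGGTCA lay in 2 members, Atp5g3 and Sdhd, or 2.99%, against 0.34% of expressed genes and 0.42% of all windows. The ETS letters CCGGAAGT lay in 7.46% of members and 8.55% of expressed genes (3.89% of all windows), and a GC box, GGGGCGGGG, in 16.4% and 24.9% (11.4%). With vehicle, the 16 members with the NRF-1 letters had a median of -0.07 and the 51 without one of -0.09, and the 11 with the YY1 letters -0.06 against -0.09 for the 56 without. The 5 members with the ETS letters had a median of -0.23 and the 62 without one of -0.08. The 11 with the GC box had a median of -0.01 and the 56 without -0.09, and the 2 with the estrogen-related receptor letters 0.05 against -0.08 for the other 65. The 4 members with the exact palindrome among the NRF-1 letters had -0.16, against -0.08 for the 63 without it.

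The windows of 4 members with contrasting ratios are shown, with matches to the motifs in capitals. Cox8a (chr19:7217567-7217866, minus strand) and Cox8b (chr7:140900397-140900696, minus strand) encode isoforms of the same subunit, Uqcr11 (chr10:80406772-80407071, minus strand) had the lowest vehicle ratio among members above 50 FPKM, and Sdha (chr13:74350191-74350490, minus strand) the highest.
Cox8a: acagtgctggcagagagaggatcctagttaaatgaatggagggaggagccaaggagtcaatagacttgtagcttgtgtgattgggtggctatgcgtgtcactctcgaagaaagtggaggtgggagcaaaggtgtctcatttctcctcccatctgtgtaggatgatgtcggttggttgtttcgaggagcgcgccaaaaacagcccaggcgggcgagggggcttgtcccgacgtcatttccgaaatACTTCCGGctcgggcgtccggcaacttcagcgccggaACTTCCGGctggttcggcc
Cox8b: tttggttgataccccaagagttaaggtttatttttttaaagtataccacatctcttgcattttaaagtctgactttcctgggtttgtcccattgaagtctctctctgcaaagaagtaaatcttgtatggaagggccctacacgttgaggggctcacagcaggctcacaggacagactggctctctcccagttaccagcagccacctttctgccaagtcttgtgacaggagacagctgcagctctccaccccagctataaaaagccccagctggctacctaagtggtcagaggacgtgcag
Uqcr11: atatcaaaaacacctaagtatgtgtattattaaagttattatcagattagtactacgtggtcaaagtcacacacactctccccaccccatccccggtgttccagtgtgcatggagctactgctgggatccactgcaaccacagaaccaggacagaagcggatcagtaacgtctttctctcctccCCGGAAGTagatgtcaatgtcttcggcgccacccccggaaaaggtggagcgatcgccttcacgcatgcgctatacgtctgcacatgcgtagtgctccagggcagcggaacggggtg
Sdha: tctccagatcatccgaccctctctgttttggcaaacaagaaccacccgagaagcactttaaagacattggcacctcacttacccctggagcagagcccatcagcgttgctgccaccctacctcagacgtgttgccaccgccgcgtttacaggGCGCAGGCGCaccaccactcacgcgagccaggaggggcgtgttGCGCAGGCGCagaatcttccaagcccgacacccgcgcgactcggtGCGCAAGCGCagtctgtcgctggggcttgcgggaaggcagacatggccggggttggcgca

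Cox8a held 2 matches to the ETS letters near its start and Uqcr11 held 1, whereas Sdha held 3 to the NRF-1 letters with the free base. The other members with the ETS letters were Ndufs3 (-0.23), Atp5h (-0.06) and Uqcrh (0.02) with vehicle. Sdha, at 0.23, lay above the median of -0.07 of the 16 members with the NRF-1 letters. The Cox8b window held no match and only 2 CG pairs, against 19 in Cox8a, 16 in Uqcr11 and 25 in Sdha. A match says only that these letters occur in the window.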

How the data were processed

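RNA-seq of the striatum was analysed from 6 tables, 1 for each pair of the 4 groups. Per the labels and the study's methods, the authors sequenced single-end reads of 51 bases from TruSeq libraries made of 380 ng RNA, aligned them with STAR 2.5.0b to RefSeq mm10, and computed FPKM per group with Cufflinks 2.2.1 and Cuffdiff. The deposited FPKM values pool the libraries of a group. The tables also hold the authors' log2 fold changes, test statistics, p-values and q-values, which were not used. Cuffdiff scales each table separately, so the values of a group differ between its 3 tables by a common factor, at most 0.06 on the log2 scale.

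The 24340 genes shared by all tables were used. Ratios were taken as log2 after adding 0.05 FPKM within the table of that pair, and levels as the geometric mean of a group's 3 values. Because there is 1 value per group, no test, interval or detection limit was computed, and counts past a log2 ratio of 0.25 are set beside those of all 14124 genes at 1 FPKM or more. Genes named are those past 0.25 in any comparison, the highest and lowest of each complex, the succinate dehydrogenase and catalytic subunits, isoform sets and the extremes of each other list. Single values of some genes under this rule are not reported here. Other genes named were chosen after their values were seen. Members and lists were chosen with earlier results of these data known. mRNA lengths, known for 82 of 82 members, and promoters came from RefSeq tables of GRCm38.p6, and words of 51 bases were compared with GENCODE transcripts. Coordinates of genes are those of the RefSeq tables of GRCm38.p6. The script was tested on simulated data. Python 3.11.15, pandas 2.3.3 and matplotlib 3.10.9 were used.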

Additional observations from a re-analysis of the deposited data

How the results depend on the processing

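The median log2 ratio of the members kept its direction in both genotype comparisons and in WT treatment under every alternative tried (0 or 1 FPKM added, a minimum of 0.1 or 5 FPKM, centring on the median of all genes, levels averaged over the 3 tables, leaving out Cox7a2l, Atp5s and Atp5sl). In R6/1 treatment it was -0.00179 as reported and 0.00151 with averaged levels. Counts moved most with the limit. For R6/1 against WT with vehicle, 9 lower and 2 higher became 38 and 11 at a log2 ratio of 0.1, and 3 and 0 at 0.5. With averaged levels 5 were lower, and with a minimum of 0.1 FPKM 4 were higher. With RGFP109, 4 lower and 2 higher became 29 lower and 6 higher at 0.1, and 0 were higher at 0.5. With 1 FPKM added 1 was higher. For treatment in R6/1, 0 higher became 4 at 0.1. In WT, 4 lower and 0 higher became 9 and 2 at 0.1, 2 lower at 0.5, and 2 lower with 1 FPKM added. The members below 0 with vehicle were 57 as reported and 51 with averaged levels, and those of complex IV 15 and 14. Over all settings no named gene past 0.25 changed sign. No paired analysis was possible because the tables hold 1 value per group, and for the same reason no library could be left out, so that which differences exceed the spread between mice is unknown.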
